A study of Mus musculus with 9 samples.

Results

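The potassium channel genes were described in RNAseq libraries of the mediobasal hypothalamus (MBH), taken at weaning from male pups of 4 control (CTRL) and 5 emulsifier-exposed (Emul) litters. Members were all gene symbols beginning with Kcn in the log2 CPM table that the authors deposited, which gave 75 genes out of 14592 named rows. They fell into 6 Kcna, 2 Kcnb, 4 Kcnc, 3 Kcnd, 8 Kcnh, 12 Kcnj, 9 Kcnk, 1 Kcnma, 2 Kcnn, 5 Kcnq and 2 Kcnt genes, and 21 others. All 75 matched a protein-coding gene of the annotation, and all 75 passed the filter on low counts. The mice were wild-type C57Bl/6 at postnatal day 21. Dams of the CTRL group drank water, and dams of the Emul group drank water with 1% carboxymethylcellulose (CMC) and 1% polysorbate 80 (P80) before mating, through gestation and during lactation. Exposure in the womb and exposure through milk or cages before weaning cannot be told apart in these groups, and only males were sequenced. Libraries held between 28245360 and 46067534 estimated counts in all, of which 116181 to 195245 lay on the members.

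Potassium channels let potassium leave the cell along its gradient and so set the resting potential, end the action potential and shape firing patterns. Voltage-gated members (Kcna to Kcnd, Kcnh and Kcnq) open on depolarization, Kcnma and Kcnn channels open with intracellular calcium, Kcnt channels with sodium, Kcnj channels rectify inwardly, and Kcnk channels carry background currents. In the hypothalamus, inward rectifiers and the M current of Kcnq channels are among the routes by which hormones and nutrients change the firing of feeding neurons.

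The pore of almost every potassium channel carries the same short selectivity filter, in which a threonine or serine is followed by any residue, a glycine, a tyrosine or phenylalanine, and another glycine. Codons for this order were searched in the coding sequence of the most abundant coding transcript of each gene, in frame, in the mm10 genome with the GENCODE M21 annotation. They were found in 62 of the 75 members, once in 55 and at 2 places in 7, against 429 (2.9%) of 14784 coding genes searched. Kcnk subunits are known to hold a pair of pore loops. The 7 members with 2 matches were Kcnk2, Kcnk3, Kcnk4, Kcnk5, Kcnk9, Kcnk12 and Kcnk13. In Kcnk1 and Kcnk6 the search found 1 match each, which is no count of their pore loops. The 13 without a match were mostly accessory subunits (Kcnab1 to Kcnab3, Kcne1l, Kcne4, Kcnip1 to Kcnip4, Kcnmb1, Kcnmb2 and Kcnmb4), together with the pore subunit gene Kcnu1. The Kcnu1 transcript searched held 381 codons, against 1209 for that of Kcnma1, and other Kcnu1 transcripts were not searched. Shown here are 27 coding bases around the filter, 5′ to 3′, for the 4 pore-forming members that differed between the groups and for 3 abundant members. The codons for the last 3 residues are in capitals.
Kcna3: atgacaactgttGGTTATGGTgatatg
Kcnh4: ctcaccagtgtaGGCTTCGGCaacgtg
Kcnh6: ctcactagtgtgGGCTTCGGCaatgtg
Kcnma1: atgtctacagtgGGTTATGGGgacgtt
Kcnj10: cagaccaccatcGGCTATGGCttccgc
Kcnt1: ttctcaactgtgGGCTTCGGTgatgtg
Kcnc1: atgacgacactgGGCTATGGAgacatg

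These windows lay in coding exons, at chr3:107037605-107037631 (plus strand, exon 1) for Kcna3, chr11:100750287-100750313 (minus strand, exon 8) for Kcnh4, chr11:106019070-106019096 (plus strand, exon 6) for Kcnh6 and chr14:23528407-23528433 (minus strand, exon 8) for Kcnma1. Those of the abundant members lay at chr1:172369296-172369322 (plus strand, exon 2) for Kcnj10, chr2:25894361-25894387 (plus strand, exon 11) for Kcnt1 and chr7:46427967-46427993 (plus strand, exon 2) for Kcnc1. A phenylalanine codon took the place of the tyrosine codon in all 8 Kcnh genes, in Kcnj8, Kcnt1 and Kcnt2, and in at least 1 of the matches of all 7 Kcnk genes with a pair of them. A match describes the letters and is no test of function.

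Levels were compared between genes as TPM, which divides by transcript length. Mean TPM over the 9 libraries ran from 0.828 for Kcnmb1, an accessory subunit of the calcium-activated BK channel, to 171.5 for Kcnj10, the main inward rectifier of glia, with a median of 15.1. Above 100 TPM were 3 members, among them Kcnj10 and Kcnt1, 9 members were under 2 TPM, and the 10 most abundant members held 46.5% of the summed TPM. Kcnj10 stood at 177.5 ± 17.4 TPM in CTRL (SD, n = 4) and 166.7 ± 6.94 in Emul (SD, n = 5). Kcnt1, a sodium-activated channel, stood at 145.4 ± 8.10 and 126.1 ± 11.5 in the same order. Of the Kcnt1 counts, 61.2% lay on transcripts annotated as retained introns and 24.4% on its main coding transcript. Its TPM is thus not a level of coding RNA alone. Kcnj10 was above Kcnt1 in both groups, and the means were further apart than the SDs. Further abundant members were Kcnc1 (93.6 TPM), a fast delayed rectifier, Kcnab2 (86.5 TPM), a cytoplasmic beta subunit of Kcna channels, Kcnip4 (62.1 TPM) and Kcnip1 (56.6 TPM), calcium-binding subunits of Kcnd channels, Kcna6 (51.1 TPM) and Kcnh2 (50.3 TPM). Among these, Kcnc1 and Kcnab2 overlapped within 1 SD in Emul, Kcnip4 and Kcnip1 in CTRL, and Kcna6 and Kcnh2 in both groups. By group, the 12 Kcnj genes took 17.1% of the members' TPM, the 4 Kcnc genes 11.96%, the 6 Kcna genes 9.49%, the 9 Kcnk genes 9.03%, the 5 Kcnq genes 8.10%, the 2 Kcnt genes 7.60% and the 21 others 21.6%.

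**Figure D1:**
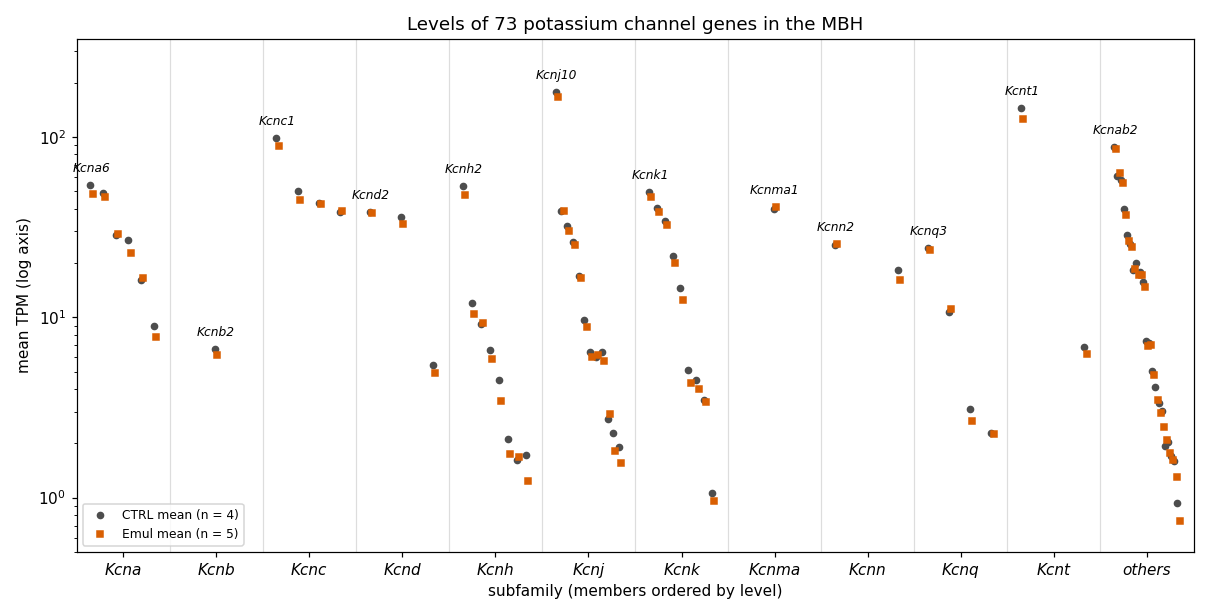
Mean TPM (log axis) of 73 of the 75 members in CTRL (circles, n = 4) and Emul (squares, n = 5), grouped by subfamily with the most abundant member shown named. Kcnj10 is the highest in both groups, and the larger subfamilies span a wide range of levels.

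The summed TPM of the 75 members was 1909, 1969, 1894 and 1921 in CTRL 1 to 4 and 1785, 1726, 1863, 1840 and 1818 in Emul 1 to 5. Every Emul library thus lay below every CTRL library on this scale. TPM values of a library add up to a fixed total, and the 13 protein genes of the mitochondrial genome took 125500 to 153988 TPM in CTRL and 162152 to 192311 TPM in Emul. With these genes set aside, the members summed to between 2201 and 2307 TPM in CTRL and between 2169 and 2317 in Emul, and the groups overlapped. On the scale used for the comparison, CPM (counts scaled to a common library size) with TMM-scaled library sizes, the members summed to 4297 ± 152 in CTRL (SD, n = 4) and 4359 ± 65.9 in Emul (SD, n = 5), which also overlapped. Comparisons of gene sums between groups use the TMM scale unless another is named.

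Few potassium channel genes differed between the groups at an unadjusted p under 0.05 in limma-voom, a smaller share than among all genes. Kcna3, a delayed rectifier, and the Kcnh genes Kcnh4 and Kcnh6 were lower in Emul, while Kcnma1, the pore subunit of the BK channel, and Kcnip4, an accessory subunit of A-type channels, were higher. These 5 of 75 members (6.67%) had an unadjusted p under 0.05 in limma-voom, against 15.8% of all 15340 genes tested. In one direction, 2 members were higher against 6.84% of all genes, and 3 were lower against 8.99% of all genes. None of the 75 passed the study's cutoff of an unadjusted p under 0.05 with a change over 1.5-fold, which 0.469% of all genes passed. None had an adjusted p under 0.05 in limma-voom, which 0.117% of all genes had, and the smallest adjusted p of a member was 0.14. edgeR's quasi-likelihood test and limma-trend also gave 0 members with an adjusted p under 0.05, and DESeq2 gave 1, Kcnip4 (adjusted p = 0.033). The libraries of CTRL and Emul did not overlap for 2 members (2.67%), against 6.60% of all genes. For the p threshold and for overlap the members' shares lay below those of all genes, a difference that was not tested.

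Changes were also small in size. The median log2 fold change of the 75 members was 0.02 with 43 above and 32 below 0, against a median of 0.00 over all genes, of which 50.8% were above 0. The extremes were -0.35 for Kcnh4 and 0.20 for Kcns1, a silent subunit that modifies Kcnb channels. The 95% interval lay within a 1.5-fold change in either direction for 72 of 75 members and within a 1.2-fold change for 41. The 3 whose intervals reached further were Kcnh4, Kcnj13 and Kcnk5, all with low counts. Precision among the members was somewhat lower than in the whole table, with a median SE of 0.07 against 0.06 on the log2 scale. Counts of called members depended on single libraries. Without Emul 4, 10 of 75 were called (8 of them higher in Emul), against 17.4% of all genes. Without CTRL 4 and without Emul 2, 2 of 75 were called in each fit, against 12.5% and 16% of all genes. Only Kcna3 and Kcnip4 were called in all 20 alternatives examined. With library totals in place of TMM, 1 of 5 called members was higher instead of 2 of 5.

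**Figure D2:**
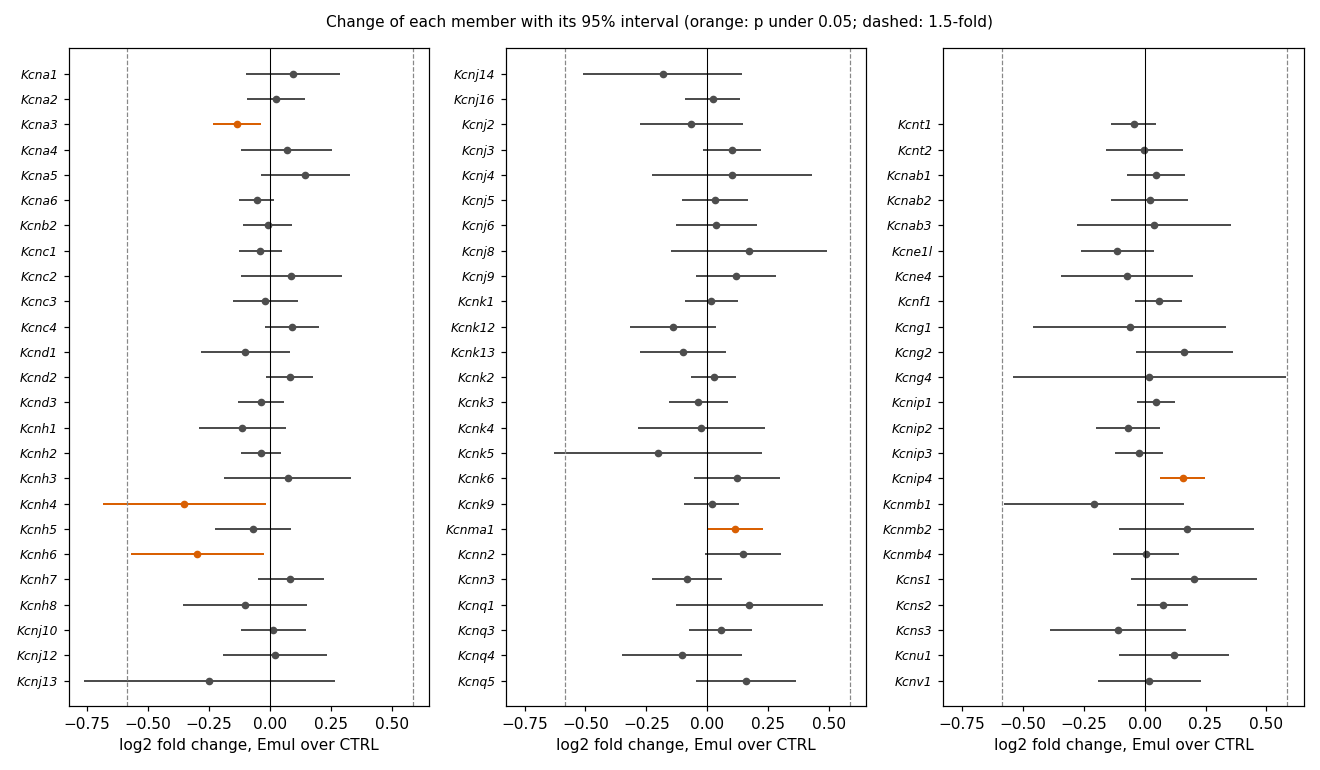
Log2 fold change (Emul over CTRL) of 73 of the 75 members, each with its 95% interval from limma-voom, in orange where the unadjusted p is under 0.05, with dashed lines at a 1.5-fold change. All intervals except those of Kcnh4, Kcnj13 and Kcnk5 lie between the dashed lines, and 5 members are in orange.

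Kcna3 (chr3:107036169-107038070, plus strand) encodes a delayed rectifier known from neurons, glia and immune cells. Its log2 CPM was 4.61, 4.64, 4.57 and 4.52 in CTRL 1 to 4 and 4.41, 4.40, 4.49, 4.47 and 4.47 in Emul 1 to 5. The highest Emul library was lower than the lowest CTRL library. The difference was -0.14 (SE 0.04, 95% interval -0.23 to -0.04), a decrease of 9.0%, with p = 0.0082 and adjusted p = 0.18 in limma-voom, and an exact two-sided permutation test over all assignments of libraries gave p = 0.0079, the smallest it can give. The gene has 1 quantified transcript carrying 100% of its counts, so gene and transcript are the same measure here.

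Kcnip4 (chr5:48389502-49524907, minus strand) encodes a calcium-binding protein that assembles with Kcnd channels and changes their inactivation. Its log2 CPM was 6.03, 6.11, 6.01 and 6.01 in CTRL and 6.18, 6.21, 6.30, 6.11 and 6.19 in Emul. Every Emul library lay above every CTRL library, although Emul 4 and CTRL 2 were almost equal. The difference was 0.16 (SE 0.04, 95% interval 0.07 to 0.24), an increase of 11.4%, with p = 0.0023 and adjusted p = 0.14 in limma-voom, and the exact two-sided permutation test gave p = 0.016.

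Kcnma1 (chr14:23289431-24014491, minus strand) encodes the pore of the large-conductance channel opened by calcium and voltage. Its log2 CPM was 7.71, 7.82, 7.61 and 7.71 in CTRL and 7.73, 7.80, 7.96, 7.76 and 7.89 in Emul. The groups overlapped, since CTRL 2 was above 3 of the Emul libraries. The difference of 0.11 (SE 0.05, 95% interval 0.00 to 0.22) had p = 0.049 and adjusted p = 0.31 in limma-voom, against p = 0.11 in the exact permutation test, and it was not called in 10 of the 20 alternatives.

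Kcnh4 (chr11:100740376-100759942, minus strand) and Kcnh6 (chr11:106008124-106034549, plus strand) encode channels of the Elk and Erg types, slow voltage-gated relatives of Kcnh2. Kcnh4 log2 CPM was 1.22, 1.68, 2.03 and 1.86 in CTRL and 1.23, 1.33, 1.49, 1.33 and 1.31 in Emul. Here 3 CTRL libraries lay above all of Emul, and CTRL 1 lay at the lowest value of all libraries. The difference was -0.35 (SE 0.15, 95% interval -0.68 to -0.02) with p = 0.039 and adjusted p = 0.29 in limma-voom, and p = 0.079 in the exact permutation test. Kcnh6 log2 CPM was 2.81, 2.90, 2.68 and 3.04 in CTRL and 2.98, 2.50, 2.29, 2.47 and 2.65 in Emul, so 4 Emul libraries lay below all of CTRL and Emul 1 lay within it. Its difference was -0.30 (SE 0.12, 95% interval -0.57 to -0.03) with p = 0.033 and adjusted p = 0.27 in limma-voom, and p = 0.095 in the exact permutation test. Both genes were low, with 87 to 155 counts per library for Kcnh4 and 181 to 352 for Kcnh6, and each was called in 13 of the 20 alternatives.

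**Figure D3:**
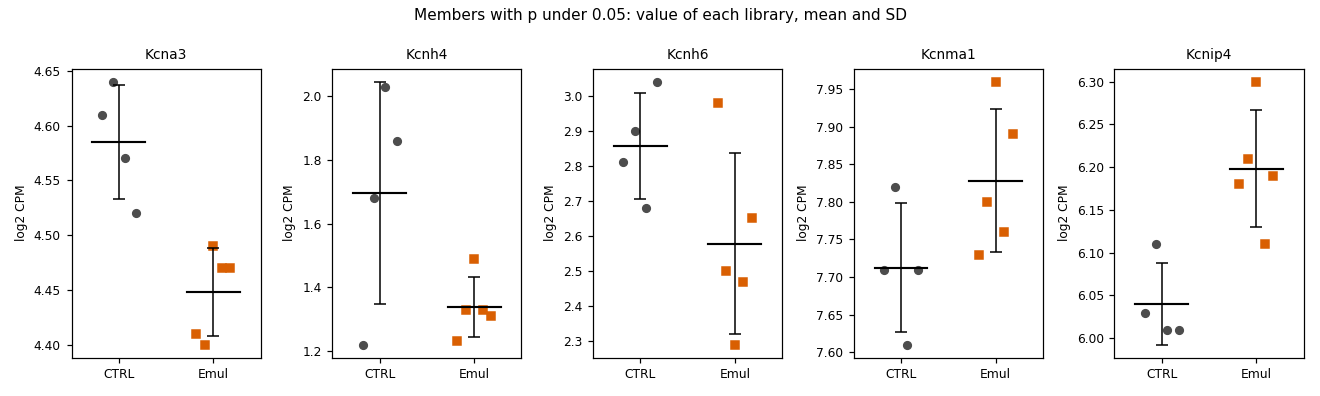
Log2 CPM of each library for the 5 members with an unadjusted p under 0.05, with circles for CTRL (n = 4), squares for Emul (n = 5), and lines and bars for the mean and SD. The groups are separate for Kcna3 and, by a hair between CTRL 2 and Emul 4, for Kcnip4, and overlap for Kcnh4, Kcnh6 and Kcnma1.

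In bulk tissue, fewer cells of a type and less RNA per cell cannot be told apart, and some cell type markers differed between the groups. Of 5 neuronal markers (Snap25, Syt1, Rbfox3, Stmn2 and Tubb3), 4 were higher in Emul at p under 0.05, against 6.84% of all genes. Their summed CPM was 2360 to 2574 in CTRL and 2556 to 2768 in Emul. Of 6 oligodendrocyte markers (among them Mbp, Mog, Mobp, Cnp and Mag), 5 were lower, against 8.99% of all genes. Their sums were 13080 to 16467 in CTRL and 10212 to 13955 in Emul. Of 6 astrocyte markers, 1 was lower, with sums of 3226 to 3394 and 3035 to 3368. No marker tested had an adjusted p under 0.05 in limma-voom, and the summed CPM of every marker list overlapped between the groups. No marker was at 0 in all libraries. The part of these cell types in the differences of Kcna3, Kcnh4, Kcnh6, Kcnma1 and Kcnip4 was not tested. The sums for markers of arcuate neurons, the MBH's feeding neurons, were 124 to 183 CPM, and those for thalamic markers 261 to 454 CPM with Emul 5 lowest and Emul 3 highest.

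Among the Kcna genes, whose tetramers set threshold and repolarization, Kcna3 was lower and the other 5 did not pass p under 0.05. Kcna6 was the most abundant by TPM, with log2 CPM of 7.07 to 7.10 in CTRL and 7.0 to 7.12 in Emul. Each Emul library except Emul 4 lay below CTRL, and the difference was -0.05 (SE 0.03). Of the 2 Kcnb genes, delayed rectifiers of cell bodies, 0 were called, and Kcnb2 differed by -0.01 (SE 0.04).

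The 4 Kcnc genes, which allow fast firing, had differences between -0.04 and 0.09 with 0 called. Kcnc1, the most abundant, had log2 CPM of 7.81 to 7.95 in CTRL and 7.75 to 7.91 in Emul. In the Kcnd genes, which carry A-type current, Kcnd2 differed by 0.08 (SE 0.04), Kcnd3 by -0.04 (SE 0.04) and Kcnd1 by -0.10 (SE 0.08), and 0 of 3 were called. Their partners Kcnip1, Kcnip2 and Kcnip3 differed by 0.05 (SE 0.03), -0.07 (SE 0.06) and -0.02 (SE 0.04), so that Kcnip4 was the single called member of its 4.

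The Kcnh genes had the lowest median of the 12 groups, at -0.09 with 6 of 8 below 0, against 0.00 over all genes. The 6 of 8 and a negative median were found in each of 12 settings of the comparison, with medians between -0.12 and -0.08. All 12 settings used the same 9 libraries, so their agreement is no independent evidence. Fits with 1 library left out were not among the 12. A negative median in all 12 was also found for the Kcnd and Kcnt genes, and in 11 of 12 for the Kcnk genes. The summed CPM of the Kcnh genes was 203 ± 4.51 in CTRL (SD, n = 4) and 199 ± 7.76 in Emul (SD, n = 5), which overlapped. Kcnh2, known for cardiac repolarization and by far the most abundant Kcnh gene here, had log2 CPM of 6.14, 6.20, 6.14 and 6.22 in CTRL and 6.17, 6.17, 6.09, 6.08 and 6.18 in Emul, a difference of -0.04 (SE 0.04).

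The 12 Kcnj genes, inward rectifiers, had 0 called and a median difference of 0.03, with 9 above 0. In glia, Kcnj10 differed by 0.01 (SE 0.06) and its partner subunit Kcnj16 by 0.02 (SE 0.05). Kcnj10 log2 CPM was 8.90, 8.88, 8.72 and 9.10 in CTRL and 8.82, 8.97, 8.95, 8.90 and 8.94 in Emul, and CTRL alone spanned more than Emul. The G protein-gated subunits Kcnj3, Kcnj5, Kcnj6 and Kcnj9, through which opioid and other receptors silence neurons, differed by 0.10 (SE 0.05), 0.03 (SE 0.06), 0.04 (SE 0.07) and 0.12 (SE 0.07). All 4 overlapped between the groups, and 95% intervals of Kcnj3 and Kcnj9 were -0.01 to 0.22 and -0.04 to 0.28.

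Kcnj8 is a pore subunit of the ATP-sensitive channel, found mainly in vessels. It was low, with log2 CPM of 1.5 to 1.91 in CTRL and 1.5 to 2.10 in Emul and a difference of 0.17 (SE 0.15). In the authors' table its difference was -0.64 (SE 0.96), and the share of its counts on its leading transcript ran from 16.1% to 100% between libraries. Kcnj11, the pore subunit of the same channel in neurons and beta cells, was not a member under the rule but was present in the transcript files. Its log2 CPM was 4.16, 4.41, 4.26 and 4.36 in CTRL and 4.45, 4.36, 4.38, 4.32 and 4.32 in Emul, a difference of 0.06 (SE 0.06). Their sulfonylurea receptor partners Abcc8 and Abcc9 differed by -0.01 (SE 0.06) and -0.01 (SE 0.05). No gene of the ATP-sensitive channel was thus called, and the interval of Kcnj11 ran from -0.06 to 0.18.

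Kcnj13, known in epithelia such as the choroid plexus, was near the filter with 22 to 67 counts per library. Its log2 CPM was 0.61, 0.35, 0.53 and 0.21 in CTRL and 0.56, 0.17, 0.05, 0.62 and -0.62 in Emul, with the lowest value in Emul 5 and a difference of -0.25 (SE 0.23), which was -0.06 without Emul 5. Kcne2, another choroid plexus gene and not a member, had 5 to 26 counts and did not pass the filter. The summed CPM of choroid plexus markers was 27.3 to 31.0 in CTRL and 26.8 to 34.1 in Emul.

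The 9 Kcnk genes, background channels that hold the resting potential, had 0 called and differences from -0.20 for Kcnk5 to 0.12 for Kcnk6. Kcnk1, the most abundant by TPM, had log2 CPM of 5.84, 5.69, 5.57 and 5.63 in CTRL and 5.69, 5.71, 5.72, 5.73 and 5.65 in Emul, a difference of 0.02 (SE 0.05). The calcium-activated small-conductance genes Kcnn2 and Kcnn3, which shape the pause after a spike, differed by 0.15 (SE 0.07) and -0.08 (SE 0.06). Kcnn2 log2 CPM was 4.98, 4.95, 4.62 and 4.86 in CTRL and 5.00, 4.98, 5.14, 4.89 and 5.06 in Emul. Its CTRL libraries reached into Emul, and its p was 0.060 in limma-voom (adjusted p = 0.34). Kcnn1, not a member, differed by -0.22 (SE 0.13). The accessory BK subunits Kcnmb1, Kcnmb2 and Kcnmb4 differed by -0.21 (SE 0.17), 0.17 (SE 0.13) and 0.01 (SE 0.06), none of them called beside Kcnma1.

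Of the 5 Kcnq genes, 0 were called. They include Kcnq3 and Kcnq5, subunits of the M channel that muscarinic receptors close, which differed by 0.05 (SE 0.06) and 0.16 (SE 0.09). For Kcnq5, CTRL 3 was lowest at 4.72 and Emul 5 highest at 5.36, and the other libraries lay between 4.98 and 5.31. The sodium-activated Kcnt1 and Kcnt2 differed by -0.04 (SE 0.04) and 0.00 (SE 0.07). Among the other genes, the beta subunit gene Kcnab2 had log2 CPM of 6.60 to 6.90 in CTRL and 6.67 to 7.01 in Emul, and the 3 Kcnab genes had 0 called with differences from 0.02 to 0.05.

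Genes whose products bind, cluster or complement potassium channels were compared in the same way. Of 35 such genes, 33 passed the filter, and 11 had an unadjusted p under 0.05 in limma-voom, 8 higher and 3 lower in Emul, beside the 15.8% of all genes given above. None of them changed by over 1.5-fold or had an adjusted p under 0.05 in limma-voom, where the smallest adjusted p was 0.10. Among those higher were Dpp6 and Dpp10, transmembrane subunits that join Kcnip proteins on Kcnd channels, Lgi1 and Adam23, a secreted protein and its receptor at Kcna channels, Vapa, a membrane contact protein that clusters Kcnb channels, and Calm2 and Calm3, which encode calmodulin, the calcium sensor of Kcnn and Kcnq channels. Lower were Cntn2, an adhesion protein that places Kcna channels beside nodes of Ranvier, the cation channel Hcn3 and the chloride importer Slc12a2. Without CTRL 4 the count was 7, and 12.5% of all genes were called in that fit.

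Dpp10 log2 CPM was 7.10, 7.23, 7.22 and 7.08 in CTRL and 7.28, 7.30, 7.34, 7.24 and 7.36 in Emul. The lowest Emul library was above the highest CTRL library, and the difference was 0.15 (SE 0.04, adjusted p = 0.15 in limma-voom, p = 0.0079 in the exact permutation test). Dpp6 log2 CPM was 8.70 to 8.73 in CTRL and 8.73 to 8.86 in Emul, a difference of 0.09 (SE 0.03), and the nearest libraries of the groups almost touched. Among the accessory genes of A-type channels, the groups were separate for Kcnip4, Dpp6 and Dpp10 and overlapped for Kcnip1, Kcnip2 and Kcnip3. The groups overlapped too for the pore genes Kcnd1, Kcnd2 and Kcnd3. Of the 33 partner genes tested, 6 were without overlap, among them also Lgi1, Calm2 and Calm3, against 6.60% of all genes. Members and partner genes were chosen with earlier results of these data known, so these separations are no independent evidence, and the genes were not tested as a set. The largest partner change by p was Calm2, with log2 CPM of 9.27 to 9.33 in CTRL and 9.37 to 9.61 in Emul and a difference of 0.19 (SE 0.04). Slc12a2 fell by 0.22 (SE 0.07), with log2 CPM of 7.32 to 7.61 in CTRL and 7.03 to 7.37 in Emul. The part of the neuronal and oligodendrocyte marker sums given above in these partner differences was not tested.

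The authors' log2 CPM table gave a second measure. Analysed by limma-trend, 6 of 75 members had p under 0.05, against 13.5% of its 14592 genes, and 0 of 75 also changed by over 1.5-fold, against 0.685%. None had an adjusted p under 0.05 in limma-trend, where the smallest was 0.19. Of the 6, 4 were also called on gene sums (Kcna3, Kcnh4, Kcnh6 and Kcnip4). Kcnn2 (0.25, SE 0.10, adjusted p = 0.31 in limma-trend) and Kcnt1 (-0.13, SE 0.05, adjusted p = 0.28) were called in the table but not on gene sums by limma-voom. The measure and the test both differ here, and Kcnn2 was also called on gene sums by limma-trend and by DESeq2. The sign of the difference was the same in both measures for 68 of 75 members, and the differences were within 0.1 of each other for 66.

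Levels were close between the measures for most members and far apart for a few. The table was higher by a median of 0.11 on the log2 scale, and 63 members lay within 0.2 of that shift. Lower by more than 1 than that shift were 5 members, among them Kcnma1, Kcnj8, Kcnk4 and Kcns3. Kcnma1 stood at 2.75 ± 0.47 log2 CPM in CTRL of the table (SD, n = 4) and at 7.71 ± 0.09 in the gene sums. Between 94.8% and 96.1% of the Kcnma1 counts of a library lay on the single transcript ENSMUST00000145596.2, of 12094 bases, and all its other transcripts together held 241 to 490 counts of 5570 to 9803. The Kcnma1 difference of 0.11 in the gene sums was thus read almost wholly from 1 transcript, and in the table it was 0.09 with an SE of 0.23. Which transcripts entered the table is not given in the sources used here.

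**Figure D4:**
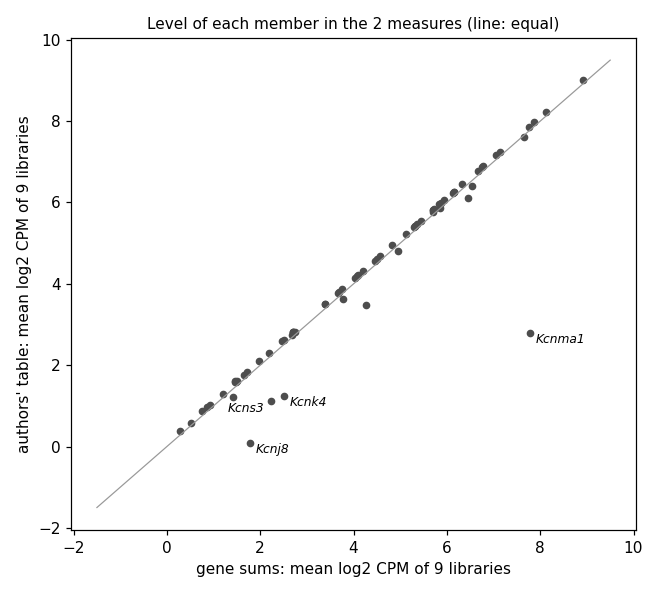
Mean log2 CPM over the 9 libraries of 73 of the 75 members in the gene sums (x axis) and in the authors' table (y axis), with the line of equal values. Most members lie just above the line, and Kcnma1, Kcnj8, Kcnk4 and Kcns3 lie well below it.

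Single transcripts were compared after the gene results were seen. Of 330 quantified transcripts of the members, 163 passed the same filter, and 7 had p under 0.05 in limma-voom, 2 higher and 5 lower, against 10.8% of 40432 transcripts. No transcript of any gene had an adjusted p under 0.05 in limma-voom, and the smallest among the members was 0.24. The groups did not overlap for 5 of the 163, against 4.70% of all transcripts, and these 5 were among the 7. Transcripts of 1 gene share reads that kallisto divides between them, so their estimates are less certain than gene sums.

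Among the 7 called transcripts, the largest difference was in Kcnip4, whose coding transcript ENSMUST00000176191.7 was higher by 1.36 (SE 0.28, adjusted p = 0.24 in limma-voom). Its CPM was 1.10, 1.03, 1.76 and 1.42 in CTRL and 2.95, 4.47, 2.53, 2.57 and 4.18 in Emul, so that the lowest Emul library exceeded the highest CTRL library. It held 3.49% of the gene's counts. The rest of Kcnip4 summed to 64.5 ± 2.47 CPM in CTRL (SD, n = 4) and 70.2 ± 3.63 in Emul (SD, n = 5). Without that transcript the groups overlapped, with 62.7 to 68.1 CPM in CTRL and 66.7 to 76.3 in Emul. Another Kcnip4 transcript, ENSMUST00000172363.8, held 6.12% of the counts, had a difference of -1.545 (SE 1.03) and was not called. Its log2 CPM was 2.1 to 2.8 in CTRL and 2.47, 2.09, -3.42, 1.28 and 2.51 in Emul 1 to 5. Emul 3 thus lay far below all other libraries. Larger differences with wide SEs occurred among transcripts not called, such as -2.28 (SE 1.57) for ENSMUST00000107363.2 of Kcnh4.

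A pair of transcripts annotated as retained introns was lower in Emul. ENSMUST00000111906.1 of Kcnip2 had log2 CPM of 2.48 to 2.80 in CTRL and 1.86 to 2.32 in Emul, a difference of -0.57 (SE 0.12), and it held 17.9% of the gene's counts. ENSMUST00000141694.1 of Kcnd3 had 1.90 to 2.25 in CTRL and 0.72 to 1.74 in Emul, a difference of -0.73 (SE 0.19), and held 2.88%. Both were without overlap between the groups, while the gene sums of Kcnip2 and Kcnd3 overlapped. Among the members' 15 tested retained-intron transcripts, these 2 were called lower, against 10.4% of 7991 retained-intron transcripts of all genes, and 12 of 15 had a negative difference, against 59.9% of all. The median was -0.10 for the 15 and -0.06 for all. Retained introns took 4.85% to 5.23% of the members' counts in CTRL and 4.32% to 5.09% in Emul. Kcnn3 had 78.8% and Kcnt1 61.2% of their counts on such transcripts.

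The other 4 called transcripts belonged to Kcna3, Kcnj3, Kcnh2 and Kcnt1. ENSMUST00000067101.9, which held 71.9% of Kcnj3 counts, was higher by 0.16 (SE 0.07). ENSMUST00000115098.6 of Kcnh2 had log2 CPM of 2.64 to 2.77 in CTRL and 1.85 to 2.66 in Emul, a difference of -0.49 (SE 0.17). ENSMUST00000128502.2 of Kcnt1, annotated as degraded by nonsense-mediated decay, was lower by 0.23 without overlap. The main coding transcript of Kcnt1, ENSMUST00000037580.12, differed by 0.03 (SE 0.06).

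**Figure D5:**
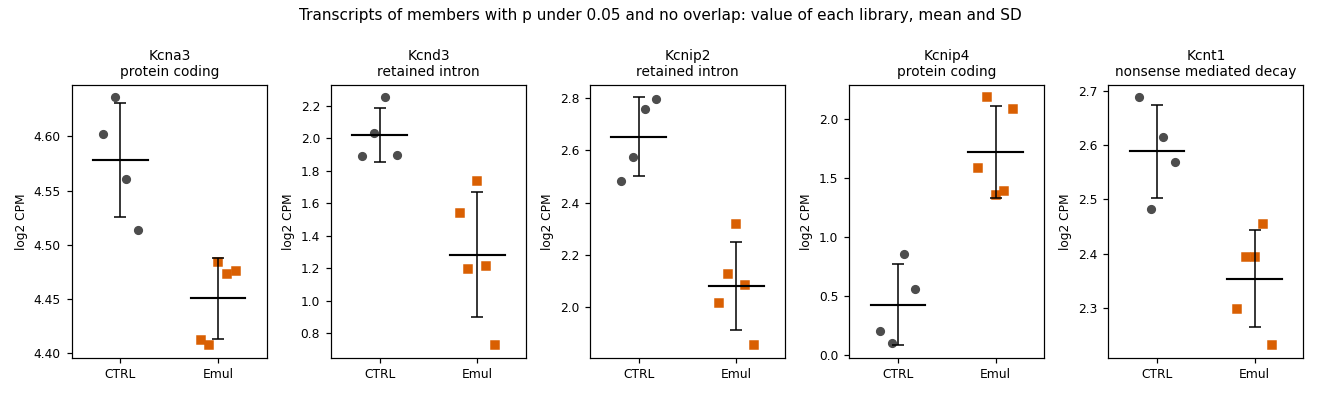
Log2 CPM of each library for the 5 transcripts of members with an unadjusted p under 0.05 and no overlap between CTRL (circles, n = 4) and Emul (squares, n = 5), with the mean and SD. The Kcnip4 transcript is higher in Emul and the other 4 are lower.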

How the data were processed

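MBH RNA of 9 male mice was sequenced by the authors, with groups and numbers as the labels give them. The methods describe separate litters. The authors quantified transcripts on mm10 with kallisto (0.46.1 in the submitters' processing notes, which also name FastQC 0.11.9 and edgeR 3.40.1) and deposited estimated counts and TPM for 119414 transcripts per library. A log2 CPM table was deposited as well. How that table was summarised to genes is not given in the sources used here.

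Transcripts were matched to GENCODE M21 by identifier (97.8% matched, and 1.20% to 1.27% of counts did not), and estimated counts and TPM were summed per gene. Counts were rounded for edgeR and DESeq2 only. The filter asked for CPM above 1 in 4 or more libraries (15340 genes). The groups were compared by limma-voom (limma 3.58.1, edgeR 4.0.16, R 4.3.3) with TMM scaling and no covariates, and p-values were adjusted by Benjamini-Hochberg over all genes. Log2 CPM used a prior count of 2. The table was analysed by limma-trend. An exact permutation test (two-sided) was run for single genes. Alternatives were edgeR, DESeq2 1.42.0, other scalings, filters and count measures, the replicate number as a block, and each library left out. The transcript comparison was added after seeing the data. Scripts were tested on simulated data.

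Members, partner genes and marker lists were chosen with earlier results of these data known. Genes named with values were those with p under 0.05 or without overlap, the most abundant of each subfamily, and genes set by role, while further members illustrate ranges. Some genes are counted among the members, partners and markers but are not reported here by name, nor shown in the plots. No batch is given in the sources used here. No pair of libraries within a group was 1 library deposited more than once (chi-square per gene of 7.49 or more). Same-numbered libraries did not deviate together (correlations of -0.16 to 0.02 over 4 pairs). Counting error is not small for members with few counts.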

Additional observations from a re-analysis of the deposited data

Results flagged for a closer look

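Within each group, the highest or lowest library of every member was compared with the rest, over 150 groups of values, of which about 7.5 would stand apart by chance at the 95% level used. In 8 cases 1 library lay far from the others of its group, so the number is close to that given by chance. Among these, CTRL 3 was lowest for Kcna2 (7.92 log2 CPM against 8.16 to 8.19 in the other CTRL libraries), Kcnab3 (3.44 against 4.15 to 4.26) and Kcnj6 (4.24 against 4.49 to 4.52). Of the 75 members, CTRL 3 was the lowest of CTRL for 33 and the highest for 19. The other CTRL libraries were the lowest for 9 to 17 members and the highest for 14 to 24. CTRL 3 also had the fewest counts and the lowest neuronal marker sum of CTRL (2360 CPM). The part of either in this was not tested. Emul 1 was lowest for Kcna2 (8.03 against 8.15 to 8.19). Emul 4 was highest for Kcna6 (7.12 against 7.0 to 7.03) and Emul 2 for Kcnip3 (5.81 against 5.65 to 5.69). Emul 5 was highest for Kcnk2 (5.96 against 5.81 to 5.84) and lowest for Kcnmb1 (0.34 against 0.76 to 0.93). None of these members had p under 0.05 in limma-voom with all libraries.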

How the results depend on the processing

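Kcna3 and Kcnip4 kept their direction and p under 0.05 in all 20 alternatives, and 0 members passed the 1.5-fold cutoff in any. With library totals alone, and with no filter on low counts, 1 member was higher instead of 2. DESeq2 gave 1 member with an adjusted p under 0.05 instead of 0. Leaving out 1 library gave 1 to 8 members higher, 1 to 4 lower, 0 with an adjusted p under 0.05 and 7 to 12 partner genes. Of all genes, 12.5% to 17.4% had p under 0.05 in limma-voom in these fits, in either direction. The same-numbered libraries were not paired by any label, and with the replicate block Emul 5 drops out of the contrast. In that fit 4 members and 8 partner genes were called, against 12.3% of all genes. Of the 4 members, 2 were higher and 2 lower, and 3 were shared with the fit without the block. For single named members, 5 values came to p under 0.05 and 6 lost it over the alternatives with all libraries, and 10 and 18 with 1 library left out. Some differences changed sign, each with p over 0.05 before and after. With library totals alone these were Kcnab2 (-0.0106), Kcnj10 (-0.0177), Kcnj16 (-0.0081) and Kcnk1 (-0.0150). Kcnj8 was at -0.635 in the authors' table, and Kcnj16 at -0.0027 with the replicate block. With 1 library left out, the lowest and highest log2 differences were -0.0335 and 0.0632 for Kcnab2, -0.0448 and 0.0809 for Kcnj10, -0.0047 and 0.0521 for Kcnj16, -0.0031 and 0.0642 for Kcnj5, -0.0170 and 0.0822 for Kcnj6 and -0.0161 and 0.0673 for Kcnk1. The cause of these changes was not tested. Members with few counts, such as Kcnj13, Kcnk5 and Kcng4, have wide intervals.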
